A study of Sus scrofa with 27 samples.

Results

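The change in lung gene expression over the first 6h of ex vivo lung perfusion (EVLP) was compared between lungs perfused with dialysis of the perfusate and lungs perfused without it. The change of a pig was its expression level at 6h relative to its own level at 0h, so that each animal served as its own baseline. The comparison used 18 of the 27 RNA-seq libraries of the series, 1 at 0h and 1 at 6h from each of 9 Large-White pigs, and the libraries taken at 12h were left out. In the Gold Standard group (GS, 5 pigs, numbered 9, 17, 44, 55 and 77) a part of the acellular Steen perfusate was exchanged for fresh solution at regular intervals. In the Pediatric Dialysis group (PD, 4 pigs, numbered 2, 3, 4 and 5) the perfusate ran continuously through a pediatric hemodialysis membrane in place of that exchange. All lungs came from healthy donors whose heart had stopped, all had a period of cold storage before perfusion, and all perfusates held methylprednisolone, cefuroxime and heparin. The 0h biopsy was taken after cold storage and before perfusion, so dialysis had not yet begun in the PD lungs when it was taken. The lungs were isolated and perfused without blood through a circuit with a leukocyte filter, and the age and sex of the pigs were not used here.

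An isolated lung that is cooled, rewarmed and ventilated switches on immediate early genes, which encode transcription factors such as EGR1 and FOS that respond within minutes to stretch or growth signals. Nuclear factor kB then drives cytokine and chemokine genes in macrophages and endothelial cells, and the DUSP phosphatases and TNFAIP3 limit that response. Endothelial cells line the perfused vessels, where the angiopoietin receptor TEK (Tie2) stabilises the barrier and vascular endothelial growth factor, through its receptor KDR, supports survival and raises permeability. Dialysis clears small solutes and lactate from the perfusate and evens out its electrolytes. Whether this alters what the lung tissue transcribes over 6h is the question behind the comparison.

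The libraries of the 2 groups were not alike before the treatments differed. Total counts at 0h ran from 26871741 to 62331425 in GS, with a median of 58677006, and from 18236602 to 20414838 in PD, with a median of 19380601, and at 6h from 26335584 to 58171724 and from 17935127 to 21820935. The 10 most abundant genes took 4.46% to 8.33% of the counts in GS and 11.6% to 18.2% in PD at 0h. Alveolar type 2 markers such as SFTPC and SFTPB, which make surfactant, summed to between 8529 and 11030 CPM (counts scaled to library size) in GS at 0h and to between 28540 and 83230 CPM in PD, and at 6h to between 6035 and 13670 and between 16530 and 52400 CPM. Erythroid markers summed to between 0.850 and 11.2 CPM in GS and to between 54.5 and 252.6 CPM in PD at 0h, and their PD sums at 6h lay between 14.8 and 97.4 CPM. Capillary endothelial and alveolar type 1 markers were present in every library. Biopsies were bulk tissue, so fewer cells of a type and less RNA per cell cannot be told apart. RNA was extracted by 2 methods, and which biopsy had which is not given in the sources used here. The paper states that the PD lungs had already served in an earlier study at 6h, while the GS group was distinct from that study's. Dialysis and any other difference between the 2 sets of lungs cannot be told apart in a comparison of PD with GS. With the GS counts thinned to the median depth of PD, 0 genes were called for the difference in change and 1562 had an unadjusted p under 0.05, 6596 differed at 0h and 3818 at 6h, against 1640, 6754 and 3884 at full depth. The part of the marker differences in any result given next was not tested.

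No gene passed the test of whether its 6h change differed between PD and GS. Of 17438 genes tested in edgeR, 0 had an adjusted p under 0.05 (0% called), and the smallest adjusted p was 0.513. Without adjustment, 1640 genes (9.4%) had a p under 0.05, with a higher change in PD for 886 (5.08%) and a lower change in PD for 754 (4.32%). DESeq2 with the same design called 48 genes (34 changed more upward in PD and 14 more downward), while limma-voom with weights for each group called 0 and had 1314 genes at an unadjusted p under 0.05. An exact rank test of the 9 changes called 0 after adjustment, with 1061 genes (6.08%) at an unadjusted p under 0.05, where the smallest p that 4 against 5 pigs can give is 0.0159, so this test could hardly pass an adjustment over 17438 genes. Every statement on a single gene's difference in change that follows is therefore an estimate that did not pass the test across all genes. The changes of the 4 PD pigs lay entirely above those of the 5 GS pigs for 294 genes (1.69%) and entirely below for 243 (1.39%), 537 in all (3.08%).

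Both groups moved over the 6h when the change of each was tested, in a fit where each gene's spread was shared between the groups. In GS, 1921 genes changed (11%), of which 1084 rose (6.22%) and 837 fell (4.8%). In PD, 780 changed (4.47%), of which 524 rose (3%) and 256 fell (1.47%). The PD calls of single genes also varied with the tool, since limma-voom called 45 genes in PD and, of the 28 named genes called there by edgeR, kept the calls of CCL4, DUSP2, TNF, TNFAIP3 and MAFF and no others. The rises in PD given next for IL1B, IL6, CXCL8, TNFSF9, CCL3L1, DUSP5, PRKG2, SELE and CREBRF and the fall of CD79B did not pass in limma-voom, with adjusted p from 0.0625 for IL1B to 0.262 for PRKG2. These calls answer another question than the difference between the groups, and a gene called in 1 group only is not shown to respond differently from the other group.

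A difference in change has 2 parts, since a pig's change can be large because its 6h level was high or because its 0h level was low. PD already differed from GS at 0h for 6754 genes, of which 3531 were higher (20.2%) and 3223 lower (18.5%) in PD (38.7% called). At 6h it differed for 3884 genes (22.3%), 2145 higher (12.3%) and 1739 lower (9.97%). For each gene the share of the difference in change that lay in the 0h level was computed from the mean log2 CPM of the groups, as the GS minus PD difference at 0h in percent of the difference in change. A share near 0% places the difference at 6h, a share near 100% places it at 0h, a share above 100% means that the 0h difference still had the same sign at 6h, and a negative share means that the 6h difference was an enlargement of one already present at 0h. The same 0h libraries enter both quantities with opposite sign, so genes picked for a large difference in change tend to show part of it at 0h from sampling alone.

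For the genes at an unadjusted p under 0.05, the 0h share was more than 50% in most, as it was for a smaller share of all genes. Among the 886 genes with a higher change in PD, the median 0h share was 87.2%, beside 76.2% over all genes, and it exceeded 50% for 219 genes with a share up to 100% plus 390 genes with a share above it, beside 9670 of all 17438 genes (55.5%). Their median level was 0.95 log2 units lower in PD than in GS at 0h and 0.13 higher at 6h, and they moved by a median of -0.45 in GS and 0.69 in PD. Of them, 436 (49.2%) differed between the groups at 0h by the edgeR test, beside 38.7% of all genes, and 208 (23.5%) differed at 6h, beside 22.3%. The 754 genes with a lower change in PD were the mirror image, with a median 0h share of 84.1%, a median difference of 0.99 at 0h and -0.15 at 6h, and median changes of 0.46 in GS and -0.59 in PD. The difference was called at 6h and not at 0h for 124 of the 886 and for 117 of the 754, beside 874 of all 17438.

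The PD pigs were unequal in this pattern. Over the 886 genes the median log2 change was 0.24 in PD pig 2, 0.18 in PD pig 3, 1.32 in PD pig 4 and 0.97 in PD pig 5. In the GS pigs it ran from -0.55 in pig 44 to -0.32 in pig 55, so the GS pigs were close together and pigs 4 and 5 carried most of the PD shift. These medians describe genes chosen for this contrast and are given with no test.

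Several chemokine and cytokine genes differed mostly at 6h. CCL4 and CCL3L1 encode macrophage inflammatory proteins that draw monocytes and lymphocytes. CCL4 (ENSSSCG00000032343, chr12:39478885-39557358, minus strand, Sscrofa11.1) rose in PD by 3.94 log2 units (adjusted p = 0.00213), while its GS change was 0.41 (adjusted p = 0.569).

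At 0h the CCL4 level was 15.1, 19.4, 21.2, 31.4 and 21.9 CPM in GS pigs 9, 17, 44, 55 and 77 and 29.4, 21.8, 14.6 and 13.7 CPM in PD pigs 2, 3, 4 and 5. At 6h it was 21.0, 6.01, 37.0, 56.0 and 54.8 CPM in the GS pigs and 965, 125, 228 and 249 CPM in the PD pigs. The groups overlapped at 0h and stood apart at 6h, with PD pig 2 far above the others and GS pig 17 below its own start. The mean log2 change was 0.35 ± 1.18 (SD, n = 5) in GS and 3.93 ± 1.05 (SD, n = 4) in PD. The difference in change was 3.54 with a standard error of 0.62 (edgeR unadjusted p = 5.49e-05, adjusted p = 0.513), and 4.67% of it lay in the 0h level. At 6h CCL4 was higher in PD by 3.50 (adjusted p = 0.0038). With each library's dependence on exon length and GC content removed, its level at 0h was lower in PD, with a difference of -1.20 (adjusted p = 0.0188), its 6h difference was 2.75 (adjusted p = 0.0104), and 34.5% of its difference in change lay at 0h.

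CCL3L1 (ENSSSCG00000017700, chr12:39491885-39493370, plus strand) gave a like picture at a lower level. In GS pigs 9, 17, 44, 55 and 77 it went from 2.94, 5.75, 7.68, 5.39 and 3.24 CPM at 0h to 5.05, 1.6, 10.5, 17 and 12.7 CPM at 6h. The PD pigs 2, 3, 4 and 5 went from 6.36, 5.08, 1.88 and 4.72 CPM to 116, 22.4, 57.0 and 59.8 CPM. All PD pigs ended above all GS pigs, and the 0h levels overlapped. It rose in PD by 3.73 (adjusted p = 0.00479) and its difference in change was 3.04, of which 6.03% lay at 0h. With the dependence on exon length and GC content removed, the difference in change was 3.48 and 38.2% of it lay at 0h, and without PD pig 5 the PD change of 3.76 did not pass (adjusted p = 0.0522). The annotated span of CCL4 covers CCL3L1 on the other strand and the strand setting of the counting is not given in the sources used here, so the reads of this pair may not be fully separated.

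IL1B, the precursor of the inflammasome cytokine interleukin-1 beta, had the largest difference in change of the named cytokines (ENSSSCG00000039214, chr3:43670109-43677125, plus strand). Its level in GS pigs 9, 17, 44, 55 and 77 was 3.67, 2.71, 6.98, 4.71 and 3.28 CPM at 0h and 3.27, 0.748, 2.60, 3.73 and 1.47 CPM at 6h. In PD pigs 2, 3, 4 and 5 it was 1.84, 2.77, 1.95 and 0.725 CPM at 0h and 25.2, 3.91, 59.8 and 7.18 CPM at 6h. Every GS pig went down and every PD pig went up, PD pig 3 by the least. IL1B rose in PD by 3.22 (adjusted p = 0.0134), its GS change was -0.98 (adjusted p = 0.196), and the difference in change was 4.2 with a standard error of 0.77 (edgeR unadjusted p = 8.99e-05). IL1B was lower in PD at 0h, with a difference of -1.22 (adjusted p = 0.0398) and higher at 6h by 3.37 (adjusted p = 0.00582), which put 31.6% of its difference in change at 0h, or 47.8% with the dependence on exon length and GC content removed. The 0h call was lost without GS pig 44 (-0.98, adjusted p = 0.0963), GS pig 55 (-1.20, adjusted p = 0.0666), PD pig 2 (-1.23, adjusted p = 0.0772) or PD pig 5 (-0.95, adjusted p = 0.0941), and the rise in PD without PD pig 5 (3.19, adjusted p = 0.0914). Without PD pig 3 the difference was 5.05 and IL1B became the 1 gene called in edgeR (adjusted p = 0.0194).

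TNF, the early macrophage cytokine tumor necrosis factor, rose in both groups (ENSSSCG00000001404, chr7:23699636-23703655, plus strand). Its level went from 4.45, 2.74, 3.13, 9.14 and 5.59 CPM at 0h to 10.4, 3.50, 15.4, 19.4 and 29.2 CPM at 6h in GS pigs 9, 17, 44, 55 and 77. Its level in PD pigs 2, 3, 4 and 5 went from 5.84, 4.86, 6.71 and 3.08 CPM to 69.9, 32.9, 43.0 and 50.3 CPM. All pigs gained, and each PD pig gained more than each GS pig. TNF rose by 1.49 in GS (adjusted p = 0.0106) and by 3.26 in PD (adjusted p = 0.00164), and the difference of 1.77 had a standard error of 0.47 and a 0h share of -6.28%. At 6h the PD level exceeded the GS level by 1.67 (adjusted p = 0.0232). Without PD pig 2 that 6h difference was 1.45 (adjusted p = 0.0902), and the rise in GS was not called without GS pig 44 (1.27, adjusted p = 0.0643) or GS pig 77 (1.24, adjusted p = 0.0609).

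TNFSF9, the costimulatory ligand 4-1BBL, rose in PD by 2.25 (adjusted p = 0.0256) with a GS change of 0.22 (ENSSSCG00000022370, chr2:72578821-72582745, minus strand). In PD pigs 2, 3, 4 and 5 it went from 11.4, 8.16, 8.64 and 5.97 CPM to 126, 19.8, 26 and 37.9 CPM, and in GS pigs 9, 17, 44, 55 and 77 from 11.3, 6.62, 10.4, 6.28 and 6.11 CPM to 3.38, 5.62, 10.9, 16.2 and 16.3 CPM. Its changes overlapped, since PD pig 3 changed by 1.27 and GS pigs 55 and 77 by 1.37 and 1.42. The difference was 2.03, with a 0h share of -4.21%, and at 6h TNFSF9 was higher in PD by 2.33 (adjusted p = 0.013). Without PD pig 2 the 6h difference was 1.43 (adjusted p = 0.0804) and the PD change 1.85 (adjusted p = 0.063), and without PD pig 5 the PD change was 2.10 (adjusted p = 0.135). IL1A was higher in PD at 6h by 2.13 (adjusted p = 0.00767), with a difference in change of 2.62 and a 0h share of 11.7%, but with the dependence on exon length and GC content removed its 6h difference was 1.32 (adjusted p = 0.106) and its share 26.7%.

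Across the list of inflammatory cytokines, 17 of 19 genes were tested and all 17 had a positive difference in change, with a median of 0.91 beside -0.002 over all genes. Of these 17 genes 5 had an unadjusted p under 0.05 with a higher change in PD and 0 with a lower one (5.08% and 4.32% of all genes). Within PD 7 rose and 0 fell, beside 3% and 1.47% of all genes, and within GS 3 rose and 1 fell, beside 6.22% and 4.8%. At 0h 2 were higher and 3 lower in PD, beside 20.2% and 18.5% of all genes, and at 6h 7 were higher and 1 lower, beside 12.3% and 9.97%. The median PD minus GS level of the list at 6h was 1.54, or 0.56 with the dependence on exon length and GC content removed. IL6 rose in both groups, by 2.35 in GS (adjusted p = 0.00682) and by 3.69 in PD (adjusted p = 0.00272), and its difference of 1.35 had an edgeR unadjusted p of 0.0579. CXCL8, which recruits neutrophils, rose in PD by 2.41 (adjusted p = 0.0326), but 71.3% of its difference in change of 2.21 lay at 0h. That rise did not pass without PD pig 2, 4 or 5, with adjusted p of 0.0687, 0.121 and 0.179. With the dependence on exon length and GC content removed CXCL8 was lower in PD at 0h (-2.74, adjusted p = 0.00831). Its 6h difference was then -0.96 (adjusted p = 0.306) and its 0h share 147.4%. IL10, which restrains macrophages, had a difference in change of 0.50 (edgeR unadjusted p = 0.399).

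Among chemokines 14 of 18 were tested, 12 had a positive difference and the median was 1.29. By unadjusted p under 0.05, 6 had a higher and 1 a lower change in PD, beside 5.08% and 4.32% of all genes. At 6h 9 of the 14 were higher in PD and 0 lower (12.3% and 9.97% of all genes), and at 0h 5 were higher and 0 lower (20.2% and 18.5%). Their median PD minus GS level was 0.59 at 0h and 1.73 at 6h, but with the dependence on exon length and GC content removed it turned to -0.73 at 0h and was 0.95 at 6h. CCL8 and the interferon-induced CXCL11 were already higher in PD at 0h, by 1.82 (adjusted p = 0.0488) and 1.44 (adjusted p = 0.0485), and stood at 3.29 (adjusted p = 0.00139) and 3.72 (adjusted p = 0.00419) at 6h, so their 0h shares were -57.0% and -80.3%. With the dependence on exon length and GC content removed, neither 0h call held, at 0.22 for CCL8 (adjusted p = 0.785) and -0.05 for CXCL11 (adjusted p = 0.945), the 6h difference of CXCL11 was 1.96 (adjusted p = 0.065), and the shares were 0.928% and 5.13%. Without PD pig 4 the 0h difference of CCL8 was 0.32 (adjusted p = 0.559), and its 0h call was also lost without any 1 of the GS pigs, as that of CXCL11 was without any pig but GS pig 17 and PD pig 5. CCL19, which guides dendritic and T cells, had a lower change in PD, with a difference of -0.84, from a 0h level that was higher by 1.6 (adjusted p = 0.000291), or by 0.33 (adjusted p = 0.384) with that dependence removed. Macrophage markers summed to a median of 4829 CPM at 0h and 7240 CPM at 6h in GS and of 4206 and 3420 CPM in PD, and neutrophil markers to 356 and 313 CPM in GS and 841 and 431 CPM in PD. The ranges in PD overlapped between the times. Macrophage sums there ran from 3176 to 4628 CPM at 0h and from 2744 to 4960 CPM at 6h. Neutrophil sums ran from 726 to 1340 CPM and from 325 to 1253 CPM. The part of cell numbers in the rises of CCL4, CCL3L1, IL1B, TNF and TNFSF9 was not tested.

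**Figure D1:**
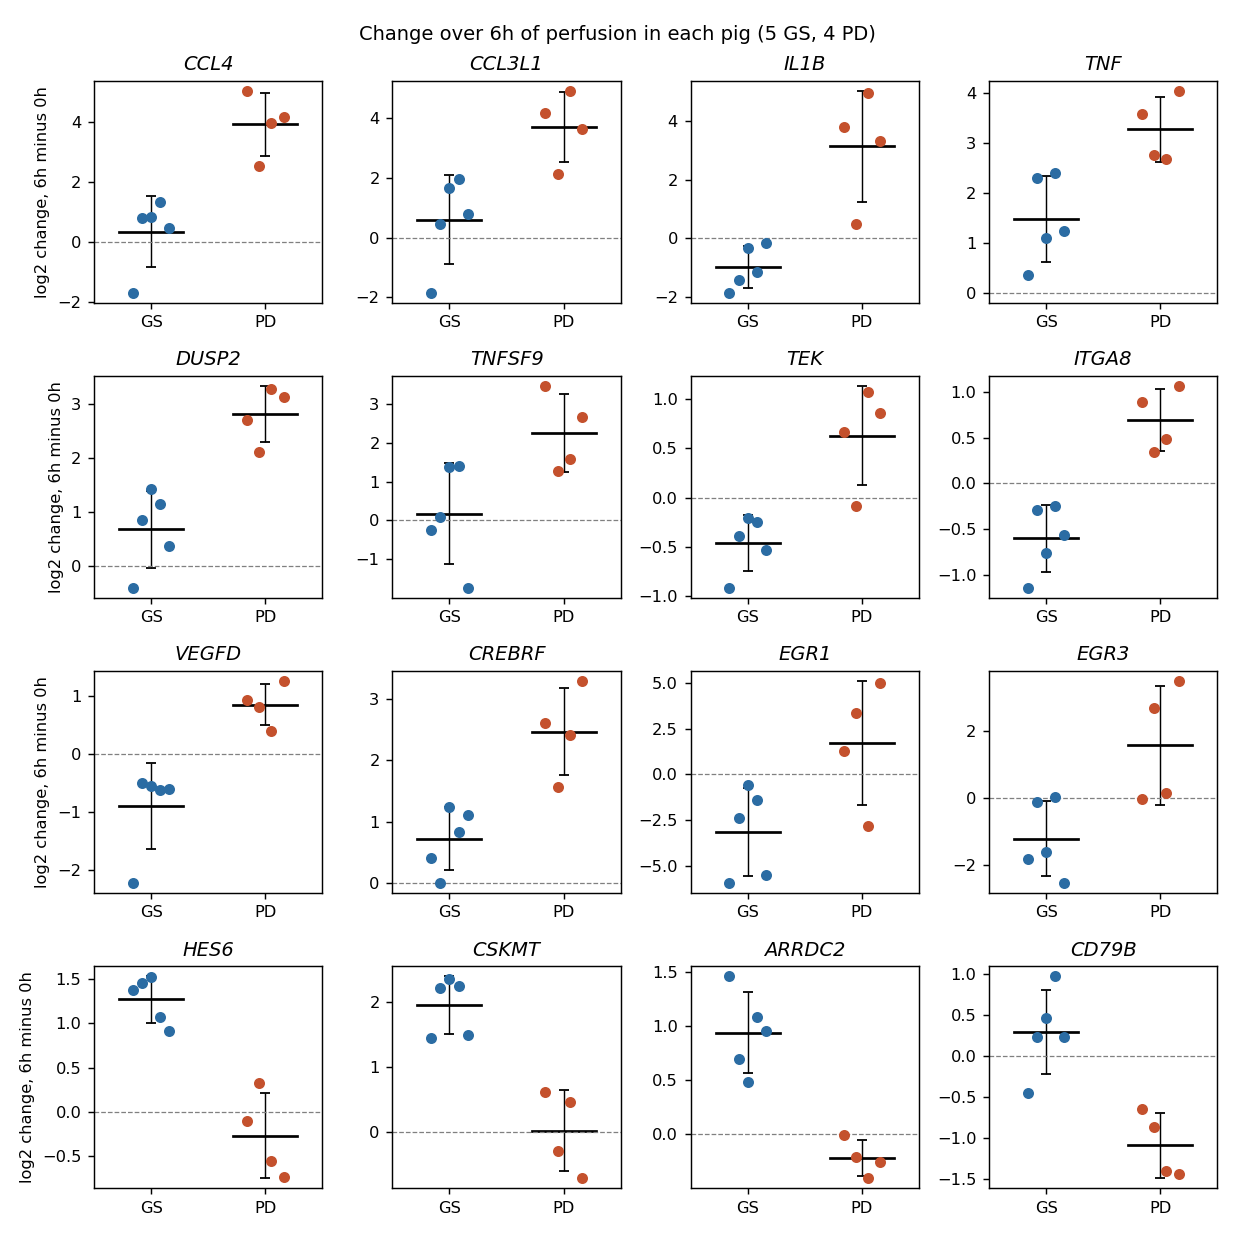
Log2 change from 0h to 6h of 16 genes in each GS pig and each PD pig, with the group mean as a bar and the SD as an error bar, on a log2 CPM scale. For CCL4, IL1B, TNF and DUSP2 every PD pig lies above every GS pig, and for HES6, CSKMT, ARRDC2 and CD79B every PD pig lies below.

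The sequence just upstream of the start is shown for 4 of these response genes, to set side by side the promoters of genes that differed mostly at 6h and of CXCL8, which differed mostly at 0h. Each run holds the 250 bases before the first annotated base of the gene (Sscrofa11.1, plus strand, read from the RefSeq genome), which is the RefSeq start for TNF and DUSP2 and the Ensembl start, a few bases upstream of it, for IL1B and CXCL8, and capitals mark the letters TATAAA or TGANTCA, searched on both strands.
IL1B, chr3:43669859-43670108: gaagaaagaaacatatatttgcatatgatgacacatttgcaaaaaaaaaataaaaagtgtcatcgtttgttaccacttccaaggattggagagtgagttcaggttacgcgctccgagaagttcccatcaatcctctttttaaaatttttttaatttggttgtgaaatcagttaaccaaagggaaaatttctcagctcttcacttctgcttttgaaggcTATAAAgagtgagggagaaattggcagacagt
TNF, chr7:23699385-23699634: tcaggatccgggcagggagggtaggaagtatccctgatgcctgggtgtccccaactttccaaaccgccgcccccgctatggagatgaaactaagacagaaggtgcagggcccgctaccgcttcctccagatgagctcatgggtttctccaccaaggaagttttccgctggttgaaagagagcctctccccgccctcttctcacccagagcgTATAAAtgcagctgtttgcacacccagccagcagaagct
CXCL8, chr8:69932393-69932642: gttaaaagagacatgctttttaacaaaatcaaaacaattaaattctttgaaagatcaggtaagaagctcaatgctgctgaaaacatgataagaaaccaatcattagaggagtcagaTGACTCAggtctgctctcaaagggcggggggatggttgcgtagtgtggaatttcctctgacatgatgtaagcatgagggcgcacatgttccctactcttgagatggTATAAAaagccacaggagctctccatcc
DUSP2, chr3:47052193-47052442: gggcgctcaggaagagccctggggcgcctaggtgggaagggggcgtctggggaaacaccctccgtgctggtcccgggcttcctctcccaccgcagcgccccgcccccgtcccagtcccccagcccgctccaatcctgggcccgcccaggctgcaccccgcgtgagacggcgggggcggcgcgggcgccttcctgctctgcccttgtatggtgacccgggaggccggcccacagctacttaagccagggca
TATAAA stood 32 bases before that first base in IL1B, 39 in TNF and 28 in CXCL8, and it is held by 1927 of 19548 RefSeq promoters of this length (9.86%). TGANTCA, the letters bound by AP-1, stood 134 bases before the first base of CXCL8, and 1021 promoters (5.22%) hold it. The DUSP2 window had a GC content of 74.0% and held neither run of letters, and the IL1B window had a GC content of 35.6%. A match describes letters in this window and not a bound site.

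Of 20 immediate early genes tested, few differed at 6h (1 higher and 1 lower in PD). More differed at 0h (1 higher and 11 lower), and some differed at neither time. DUSP2, a nuclear phosphatase that switches off ERK and p38 in activated leukocytes, belonged to the first kind (ENSSSCG00000035971, chr3:47052457-47054816, plus strand). It went from 18.4, 9.77, 32.1, 24.7 and 25.9 CPM to 23.7, 7.40, 57.8, 66.3 and 57.4 CPM in GS pigs 9, 17, 44, 55 and 77. The level in PD pigs 2, 3, 4 and 5 went from 24.1, 28, 16.8 and 18.13 CPM to 156, 121, 163 and 158 CPM. The 0h levels overlapped, the 6h levels did not, and the PD pigs ended within a narrow range. DUSP2 rose in PD by 2.81 (adjusted p = 0.00161) with a GS change of 0.69 (adjusted p = 0.11). The difference of 2.12 had a standard error of 0.40 (edgeR unadjusted p = 0.000111) and a 0h share of -2.22%, and the 6h level was higher in PD by 1.83 (adjusted p = 0.0174), or by 1.81 (adjusted p = 0.0548) without PD pig 2.

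EGR1 and EGR3, zinc finger factors induced within minutes of a stimulus, belonged to the second kind. EGR1 stood at 3517, 1520, 2336, 3397 and 2336 CPM at 0h in GS pigs 9, 17, 44, 55 and 77 and at 188, 170, 337 and 45.6 CPM in PD pigs 2, 3, 4 and 5. At 6h it stood at 77.5, 25.0, 444, 2257 and 876 CPM in the GS pigs and at 458, 1771, 47.5 and 1448 CPM in the PD pigs. The groups stood apart at 0h and overlapped at 6h, where levels within each group spread widely. EGR1 was lower in PD at 0h, with a difference of -3.80 (adjusted p = 0.00017) and its 6h difference was 0.35 (adjusted p = 0.853), so 83.6% of the 5.12 difference in change lay at 0h. EGR3 was lower in PD at 0h, with a difference of -5.50 (adjusted p = 0.000273), from 2 to 6 counts per PD library, and its difference in change of 3.06 had a 0h share of 184%.

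Of 21 immediate early genes 20 were tested, 19 had a positive difference, 10 had an unadjusted p under 0.05 with a higher change in PD and 0 with a lower one (5.08% and 4.32% of all genes), and the median was 1.33. At 0h 11 of them were lower and 1 higher in PD, beside 18.5% and 20.2% of all genes. At 6h 1 was lower and 1 higher, beside 9.97% and 12.3%, which is no more than the background. For 13 of the 20 more than 50% of the difference lay at 0h, beside 55.5% of all genes, among them JUN with 179% and JUNB with 100.3%. MYC rose in both groups, by 1.72 in GS (adjusted p = 0.00533) and 2.79 in PD (adjusted p = 0.00215). DUSP5, a nuclear ERK phosphatase, rose in PD by 2.68 (adjusted p = 0.0168) and had 27.1% of its difference at 0h, but its rise was not called without PD pig 4 (adjusted p = 0.0615) or 5 (adjusted p = 0.112).

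The nuclear factor kB feedback genes, 18 tested of 19, had no common direction, with a median of -0.10, or 0.05 with the dependence on exon length and GC content removed, and 8 positive. In GS 10 of them rose and in PD 6 rose, beside 6.22% and 3% of all genes, and none fell in either group (4.8% and 1.47%). Their 3 members with an unadjusted p under 0.05, all with a higher change in PD (5.08% of all genes), were NFKBIZ at 1.80, IER3 at 1.91 and TNFAIP3 at 1.70, with 57.9%, 64.3% and 68.9% of the difference at 0h. With the same dependence removed these shares were 56.6%, 77.7% and 33.95%, and the 0h difference of TNFAIP3 was -0.50 (adjusted p = 0.178). Under that removal 5 members had a higher and 0 a lower change at an unadjusted p under 0.05, beside 610 and 787 of all 14917 genes. The 24 interferon-stimulated genes tested of 28 had a median of 0.50, 21 of them positive and 0 with an unadjusted p under 0.05, and 6 were higher in PD at 6h (12.3% of all genes) beside 5 at 0h (20.2%).

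Among endothelial and vascular genes TEK was one that differed at 6h. TEK, the endothelial receptor of the angiopoietins (ENSSSCG00000005122, chr1:195937394-196051957, minus strand), stood at 196, 206, 123, 130 and 120 CPM at 0h in GS pigs 9, 17, 44, 55 and 77 and at 160, 230, 75.9 and 123 CPM in PD pigs 2, 3, 4 and 5. At 6h it stood at 136, 110, 93.8, 113 and 102 CPM in the GS pigs and at 253, 217, 160 and 222 CPM in the PD pigs. All 5 GS pigs went down, 3 PD pigs went up and PD pig 3 had a change of -0.08, and at 6h the groups did not overlap. Neither group's change passed the test, at -0.46 in GS (adjusted p = 0.167) and 0.63 in PD (adjusted p = 0.118). The difference was 1.08 with a standard error of 0.31 and a 0h share of 13.6%, and the 6h level was higher in PD by 0.96 (adjusted p = 0.0139). Once the dependence on exon length and GC content was removed, that 6h difference was 0.63 (adjusted p = 0.0573) and the difference in change 0.70.

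VEGFD, a ligand of the VEGF receptors of lymphatic and blood endothelium, fell in GS by 0.88 (adjusted p = 0.0455) and changed by 0.85 in PD (adjusted p = 0.106). It went from 23.0, 36.8, 19.0, 51.1 and 24.9 CPM to 15.2, 7.87, 13.3, 34.9 and 16.2 CPM in GS pigs 9, 17, 44, 55 and 77 (ENSSSCG00000012135, chrX:11893259-11933809, minus strand). The PD pigs 2, 3, 4 and 5 went from 8.98, 13.6, 8.52 and 15.9 CPM to 17.1, 23.8, 11.2 and 37.9 CPM. Every GS pig went down and every PD pig up, from 0h levels that did not overlap. The fall in GS was not called with the dependence on exon length and GC content removed (-0.85, adjusted p = 0.0544) and was lost without any 1 of the GS pigs, most of all pig 17 (-0.58, adjusted p = 0.137), and without PD pig 2 or 5. VEGFD was lower in PD at 0h, with a difference of -1.37 (adjusted p = 0.00584) and its 6h difference was 0.38 (adjusted p = 0.546), so 77.5% of the 1.73 difference lay at 0h.

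ITGA8, the integrin alpha chain of fibroblasts and smooth muscle, followed the same course further (ENSSSCG00000011046, chr10:46132914-46303365, plus strand). It went from 203, 195, 111, 259 and 188 CPM to 138, 88.3, 90.6, 153 and 158 CPM in GS pigs 9, 17, 44, 55 and 77. PD pigs 2, 3, 4 and 5 went from 49.7, 63.6, 35.4 and 81.2 CPM to 92.1, 80.9, 49.5 and 170 CPM. Each GS pig went down, each PD pig went up, and the 6h levels overlapped. Its 0h level was lower in PD, with a difference of -1.71 (adjusted p = 0.000798), its 6h difference was -0.33 (adjusted p = 0.517), and the 0h share of the 1.30 difference was 135%.

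In the angiopoietin, Tie and VEGF list 16 of 17 genes were tested, with a median difference of 0.62 and 15 positive. By unadjusted p under 0.05, 4 had a higher and 1 a lower change in PD (5.08% and 4.32% of all genes). For 11 of the 16 more than 50% lay at 0h, beside 55.5% of all genes, and at 0h 8 were lower and 1 higher in PD, beside 18.5% and 20.2% of all genes. At 6h 0 were lower and 1 higher, which is below the background of 9.97% and 12.3%. The VEGF receptor KDR had 102% of its 1.5 difference at 0h (91.4% with the dependence on exon length and GC content removed) and ANGPT2, which loosens Tie2 signaling, 43.8% of 1.25. ANGPTL4, a lipoprotein lipase inhibitor, rose in GS by 1.85 (adjusted p = 0.00286) and was the member with the lower change in PD, at -1.15, or -0.72 with the same dependence removed. Capillary endothelial markers summed to between 1951 and 2984 CPM at 0h and between 1623 and 3588 CPM at 6h in GS and to between 1767 and 2104 and between 1618 and 3014 CPM in PD, so the ranges overlapped at both times.

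Of 31 nitric oxide and vasoactive genes 30 were tested, with a median of 0.42, 21 positive, 6 at an unadjusted p under 0.05 with a higher change in PD and 0 with a lower one (5.08% and 4.32% of all genes). PRKG2 and PRKG1, the kinases that cyclic GMP activates, rose in PD by 2.47 (adjusted p = 0.0271) and 2.03 (adjusted p = 0.0494) from 0h levels lower than in GS, with differences of -3.34 (adjusted p = 0.00101) and -1.79 (adjusted p = 0.042). PRKG2 rested on 7, 5, 2 and 1 counts at 0h in PD pigs 2, 3, 4 and 5, and its rise was not called without PD pig 4 (2.24, adjusted p = 0.067) or PD pig 5 (2.14, adjusted p = 0.134). GUCY1A1, a subunit of the nitric oxide receptor, fell in GS by 0.97 (adjusted p = 0.0233) and was higher in PD at 6h by 0.82 (adjusted p = 0.0493), with 29.1% of its difference at 0h. That 6h call did not hold with the dependence on exon length and GC content removed (0.54, adjusted p = 0.176) or with GS thinned to the depth of PD (0.77, adjusted p = 0.072), and it was lost without any pig but GS pig 9. Its fall in GS was not called without GS pig 17 (-0.80, adjusted p = 0.0846), 44 (-1.08, adjusted p = 0.0598), 77 (-0.93, adjusted p = 0.0967) or 9 (-0.996, adjusted p = 0.0632). PTGS2, which makes prostaglandins, rose in PD by 2.2 (adjusted p = 0.0114). NOS3, the endothelial nitric oxide synthase, had a difference of -0.58 (edgeR unadjusted p = 0.283), or -0.30 with the same dependence removed. SELE, the selectin that endothelium shows when activated, rose in PD by 4.82 (adjusted p = 0.0287) and was higher there at 6h by 3.02 (adjusted p = 0.0142), and its difference of 2.67 had an edgeR unadjusted p of 0.075. The 6h difference of SELE was 2.18 (adjusted p = 0.0704) with the same dependence removed and 2.06 (adjusted p = 0.0543) without PD pig 4, and its rise in PD was not called without PD pig 2, 4 or 5 (adjusted p = 0.0514, 0.109 and 0.151).

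Among the other genes with the smallest p and a higher change in PD, PREPL, a serine peptidase, fell in GS by 0.998 (adjusted p = 0.00636) and was higher in PD at 6h by 1.13 (adjusted p = 0.0226), with 18.9% of its 1.25 difference at 0h. With the dependence on exon length and GC content removed, that 6h difference was 0.53 (adjusted p = 0.213), the difference in change 0.81 and the 0h share 40.6%. The 6h difference was also not called without GS pig 44, GS pig 77 or PD pig 2 (adjusted p = 0.0559, 0.057 and 0.0882). CREBRF, a regulator of the unfolded protein response and of metabolism, rose in PD by 2.46 (adjusted p = 0.00213) from 3.38, 8.77, 2.97 and 2.69 CPM to 20.7, 25.9, 15.8 and 26.4 CPM in PD pigs 2, 3, 4 and 5 (ENSSSCG00000016986, chr16:51150560-51260685, minus strand). In GS pigs 9, 17, 44, 55 and 77 it went from 30.9, 33.4, 18.2, 10.2 and 16.3 CPM to 67.0, 44.5, 18.2, 24.1 and 28.9 CPM. The PD pigs started below all GS pigs, and the 6h levels overlapped. Its 0h level was lower in PD, with a difference of -2.26 (adjusted p = 0.0021) and the 0h share of its 1.74 difference was 134%. The extracellular matrix gene FREM1 and the transcriptional cofactor VGLL3 had shares of 143% and 131%, and the hypoxia-induced P4HA1 and EGLN3 shares of -3.26% and -17.2%, with 6h levels higher in PD by 1.27 for each (adjusted p = 0.0163 and 0.00679). Without the dependence on exon length and GC content the 6h differences of P4HA1 and EGLN3 were 0.46 (adjusted p = 0.349) and 0.897 (adjusted p = 0.0211), and the share of P4HA1 was 43.3%. Without PD pig 2 the 6h difference of P4HA1 was 0.897 (adjusted p = 0.0599).

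Genes with a lower change in PD also included ones that differed mostly at 6h and ones that differed mostly at 0h. ARRDC2, an arrestin-like adaptor induced by glucocorticoids, rose in GS by 0.94 (adjusted p = 0.00783) with a PD change of -0.22 (adjusted p = 0.522). Its level went from 85.2, 49.97, 126, 74.1 and 85.0 CPM to 166, 138, 204, 104 and 181 CPM in GS pigs 9, 17, 44, 55 and 77 (ENSSSCG00000013893, chr2:59768099-59778856, minus strand). In PD pigs 2, 3, 4 and 5 it went from 58.5, 68.2, 124 and 57.7 CPM to 58.2, 59.0, 93.8 and 48.3 CPM. Every GS pig went up and every PD pig went down, if only slightly in PD pig 2, and at 6h all PD pigs were below all GS pigs. The difference was -1.16 with a 0h share of -11.9%, and the 6h level was lower in PD, with a difference of -1.27 (adjusted p = 0.00963). With the dependence on exon length and GC content removed, that 6h difference was -0.53 (adjusted p = 0.289) and the 0h share 34.7%. RNF126 and ZDHHC18, a ubiquitin ligase and a palmitoyltransferase, rose in GS by 0.98 (adjusted p = 0.00703) and 0.65 (adjusted p = 0.0239) and were lower in PD at 6h, with differences of -1.13 (adjusted p = 0.0116) and -0.89 (adjusted p = 0.038). Removing the same dependence left the 6h differences at -0.86 (adjusted p = 0.0429) for RNF126 and -0.63 (adjusted p = 0.0884) for ZDHHC18, took their differences in change from -1.05 to -0.50 and from -0.93 to -0.34, and left the GS change of ZDHHC18 at 0.50 (adjusted p = 0.088). The rise of ZDHHC18 in GS was also lost without any 1 of the GS pigs (adjusted p from 0.0553 without pig 9 to 0.115 without pig 77) and without the pig term (adjusted p = 0.0796), and its 6h call without GS pigs 44, 55 or 77 or PD pigs 2, 3 or 5 in turn (adjusted p from 0.06 to 0.0954).

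HES6, a transcriptional cofactor of the Notch target family, rose in GS by 1.28 (adjusted p = 0.0052) with a PD change of -0.27 (ENSSSCG00000016342, chr15:137785808-137787694, minus strand). It went from 2.47, 4.54, 3.78, 3.25 and 3.98 CPM to 4.67, 11.8, 10.3, 9.36 and 8.37 CPM in GS pigs 9, 17, 44, 55 and 77 and from 13.4, 8.55, 20.7 and 13.6 CPM to 12.5, 10.7, 14.1 and 8.18 CPM in PD pigs 2, 3, 4 and 5. PD pigs began above all GS pigs and both groups ended at overlapping levels, with 125% of the -1.55 difference at 0h (168% of -0.93 with the dependence on exon length and GC content removed). CSKMT, a mitochondrial citrate synthase methyltransferase, rose in GS by 1.98 (adjusted p = 0.00217) from a level that was 2.23 lower than in PD at 0h, and 111% of its -1.95 difference lay at 0h.

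CD79B, a chain of the B cell receptor, fell in PD by 1.10 (adjusted p = 0.0357) with a GS change of 0.29 (ENSSSCG00000017283, chr12:15053007-15056441, plus strand). In PD pigs 2, 3, 4 and 5 it went from 10.1, 26, 32.9 and 32.8 CPM to 6.40, 14.3, 12.4 and 12.1 CPM, and in GS pigs 9, 17, 44, 55 and 77 from 13.1, 9.31, 19.2, 12.5 and 11.2 CPM to 15.3, 6.81, 22.6, 17.2 and 21.9 CPM. Each PD pig went down, by more than the only GS pig that did, pig 17. It was higher in PD at 0h by 0.98 (adjusted p = 0.0336) and 62.5% of its -1.39 difference lay there, and that 0h difference was 0.62 (adjusted p = 0.115) without the dependence on exon length and GC content. With that dependence removed the difference in change was -0.88, and the fall in PD was not called (-0.73, adjusted p = 0.0616), nor was it without PD pig 5 (-0.97, adjusted p = 0.172), PD pig 4 or GS pigs 9, 44 or 55 in turn, and the 0h call was lost without any pig but GS pig 44 and PD pig 2. The summed B cell markers had medians of 289 CPM at 0h and 227 CPM at 6h in GS and of 806 and 886 CPM in PD.

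Several housekeeping and stress lists had a negative median difference in change, though 0 of their genes were called for it. All 66 ribosomal protein genes had a negative difference, with a median of -0.62, though 5 of them (4.32% of all genes) had an unadjusted p under 0.05 with a lower change. At 0h 64 of the 66 were higher in PD (20.2% of all genes), by a median of 2.39, and at 6h 50 were (12.3% of all genes), by a median of 1.84 (1.35 and 0.896 with the dependence on exon length and GC content removed), so 65 of the 66 had over 50% of the difference at 0h, beside 9670 of all 17438 genes (55.5%). Of 70 nuclear genes of the respiratory chain 62 were negative, with a median of -0.46, 6 at an unadjusted p under 0.05, all lower (4.32% of all genes), and 60 higher in PD at 0h (20.2%). Endoplasmic reticulum stress genes had a median of -0.39 over 17, with 5 at an unadjusted p under 0.05, all lower (4.32% of all genes). Of these MANF, which protects the secretory pathway, rose in GS by 0.82 (adjusted p = 0.0244), with a PD change of -0.18, and was higher in PD at 0h by 2.05 (adjusted p = 6.19e-05) and at 6h by 1.08 (adjusted p = 0.0267). With the dependence on exon length and GC content removed, these differences were 0.86 (adjusted p = 0.00561) and 0.07 (adjusted p = 0.857). The rise of MANF in GS was not called without any 1 of the GS pigs (adjusted p from 0.0651 without pig 9 to 0.0959 without pig 77) or without the pig term (adjusted p = 0.0613), nor its 6h difference without GS pigs 44 or 55 or PD pigs 2 or 4 in turn (adjusted p from 0.0525 to 0.0956). The median of the ribosomal proteins was -0.38 and that of the respiratory chain -0.23 once this dependence was removed, while that of the cytokines was 0.96 and that of the chemokines 1.49. Under that removal 0 of 66 ribosomal protein genes and 2 of 66 respiratory chain genes had a lower change at an unadjusted p under 0.05. The same held for 4 of 17 endoplasmic reticulum stress genes and 787 of all 14917 genes.

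Glucocorticoid response genes are of interest because every perfusate held methylprednisolone. Of 15 listed 13 were tested, and 7 rose in GS and 4 in PD, beside 6.22% and 3% of all genes, with 0 falling. At 0h, before dialysis, 4 of the 13 were already lower in PD and 2 higher, beside 18.5% and 20.2% of all genes. At 6h 6 were lower in PD and 0 higher, beside 9.97% and 12.3%. The median PD minus GS level of the list was -0.64 at 0h and -0.90 at 6h. With the dependence on exon length and GC content removed these medians were -0.67 and -0.73. Their median difference in change was -0.30 with 2 genes at an unadjusted p under 0.05, both lower (4.32% of all genes). That median turned to 0.15 with the dependence on exon length and GC content removed, where 2 genes were again lower and 0 higher at that p. FKBP5, the receptor's cochaperone, rose in GS by 1.46 (adjusted p = 0.0297), with a PD change of 0.46, and was lower in PD at 6h, with a difference of -1.76 (adjusted p = 0.0381). The 6h call of FKBP5 held without 4 of the 9 pigs and its rise in GS without 6, and without GS pig 9 these were -1.27 (adjusted p = 0.0836) and 1.153 (adjusted p = 0.121). TSC22D3 (GILZ), a mediator of the anti-inflammatory action of steroids, had 109% of its -1.31 difference at 0h.

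**Figure D2:**
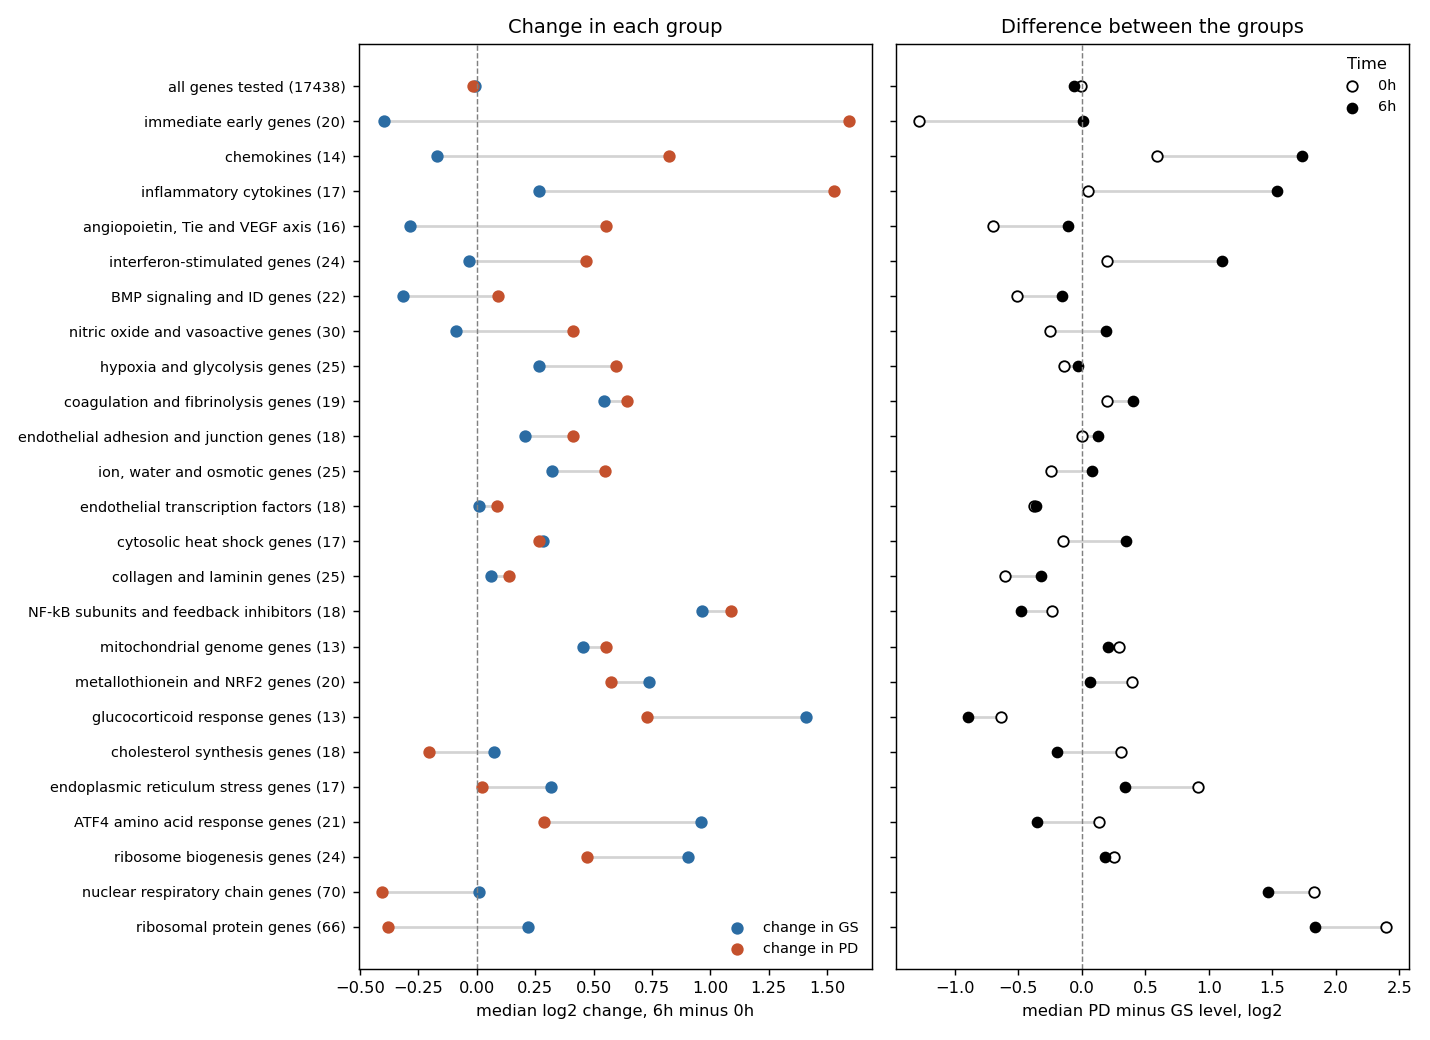
Median log2 change in GS and in PD (left) and median PD minus GS difference at 0h and at 6h (right) for 24 gene lists and all genes tested. Cytokines and chemokines have higher medians at 6h than at 0h, and ribosomal proteins have the largest positive median at 0h, 2.39, which is 1.84 at 6h.

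The other lists are read against 6.22% of all genes that rose in GS, 3% that rose in PD, and 5.08% higher and 4.32% lower by unadjusted p. Amino acid response genes under ATF4 rose in GS for 10 of 21 and in PD for 4, with a median difference of -0.41. Ribosome biogenesis genes rose for 12 of 24 in GS and 1 in PD, with a median of -0.43 and 4 at an unadjusted p under 0.05, all lower. Hypoxia genes had a median of 0.30 over 25, with 4 at an unadjusted p under 0.05 higher and 2 lower. Ion transport and osmotic genes, which answer to salt and water balance, had a median of 0.17 over 25, with 1 at an unadjusted p under 0.05, SLC12A2 at 0.83. With each library's dependence on exon length and GC content removed SLC12A2 was at 0.37 (edgeR unadjusted p = 0.177), the median was 0.07, and 0 genes were higher and 2 lower by unadjusted p. Heat shock genes had a median of 0.10 over 17, the 13 protein genes of the mitochondrial genome -0.14 with 0 at an unadjusted p under 0.05, and collagen and laminin genes 0.09 over 25. Coagulation genes rose for 8 of 19 in PD and for 4 in GS, with a median of 0.25, and BMP and ID genes had a median of 0.47 over 22, with ID1 at -1.15 the only 1 at an unadjusted p under 0.05, but under the same removal ID1 was at -0.76 (edgeR unadjusted p = 0.188) and the list had 1 gene higher and 0 lower. Endothelial adhesion and junction genes had a median of 0.25 and endothelial transcription factors 0.16, each over 18. Metallothionein and NRF2 genes had a median of -0.24 over 20 and cholesterol synthesis genes -0.34 over 18. The removal took the medians of the ATF4, coagulation and metallothionein lists to -0.21, 0.09 and -0.10, that of the endothelial transcription factors to 0.29 and that of collagen and laminin genes to 0.19. It left the median of the ribosome biogenesis list at -0.34, with 0 genes higher and 6 lower by unadjusted p.

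The difference in change was ordered by the length and base composition of the genes. Genes with a higher change in PD at an unadjusted p under 0.05 had a median exon length of 6193 bases and a median GC content of 43.9%, those with a lower change 2175 bases and 60.0%, beside 3702 bases and 51.3% over all genes. In the quintile of genes with the longest exons, 6802 bases and more, 350 had a higher and 33 a lower change, and in the quintile with the shortest, up to 1904 bases, 57 had a higher and 278 a lower change. In the quintile with the lowest GC content 342 had a higher and 15 a lower change, and in the fifth with the highest 22 and 311. The median difference ran from -0.30 to 0.30 from the shortest to the longest quintile and from 0.35 to -0.38 from the lowest to the highest GC content. By length the groups were further apart at 0h than at 6h, with median PD minus GS levels of 0.80 and 0.47 for the shortest genes and of -0.44 and -0.23 for the longest. By GC content they were further apart at 6h, with 0.33 at 0h and 0.62 at 6h for the lowest and -0.20 and -0.60 for the highest.

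**Figure D3:**
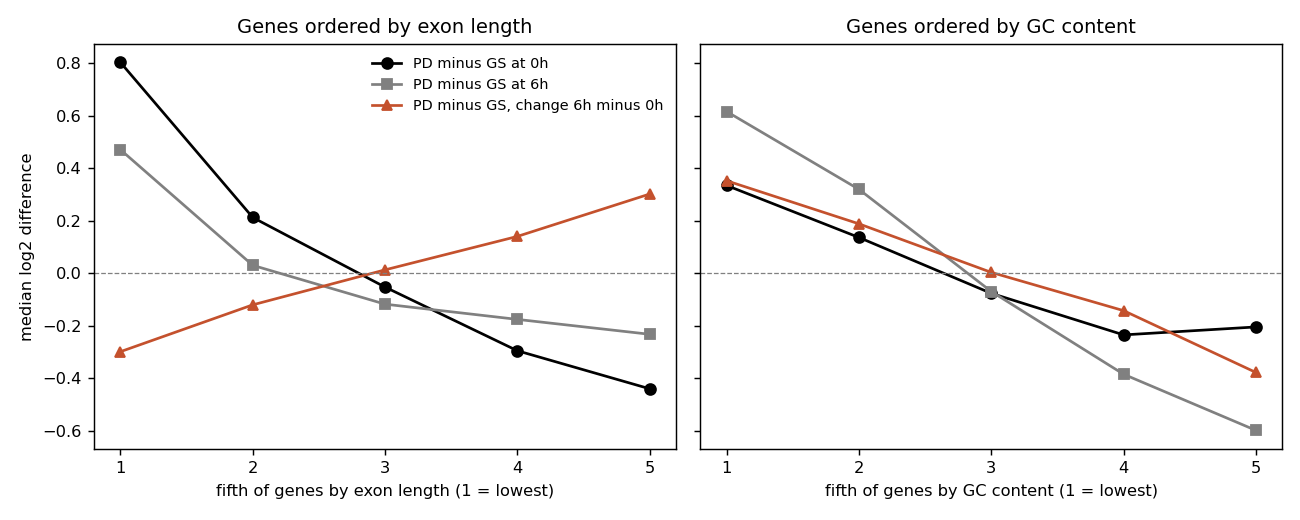
Median log2 differences (PD minus GS in change, at 0h and at 6h) for genes in quintiles of exon length (left) and of GC content (right), across 14917 genes with a matched RefSeq model. The difference in change goes up from -0.30 to 0.30 with exon length and down from 0.35 to -0.38 with GC content.

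Within single libraries, the median of long genes of low GC content minus that of short genes of high GC content gives the size of this trend. It changed from 0h to 6h by 0.84 in PD pig 2, -0.50 in PD pig 3, 1.89 in PD pig 4 and 0.93 in PD pig 5. In GS pigs 9, 17, 44, 55 and 77 it changed by 0.25, 0.11, -0.41, -0.24 and -0.44. PD pigs 4 and 5 were the libraries with the lowest values at 0h, -0.39 and 0.01, whereas PD pig 3 moved down, as GS pigs 44, 55 and 77 did. With this dependence removed 0 genes were called and 1397 of 14917 had an unadjusted p under 0.05. Of these, 610 had a higher and 787 a lower change in PD, where without the removal the higher ones were more.

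**Figure D4:**
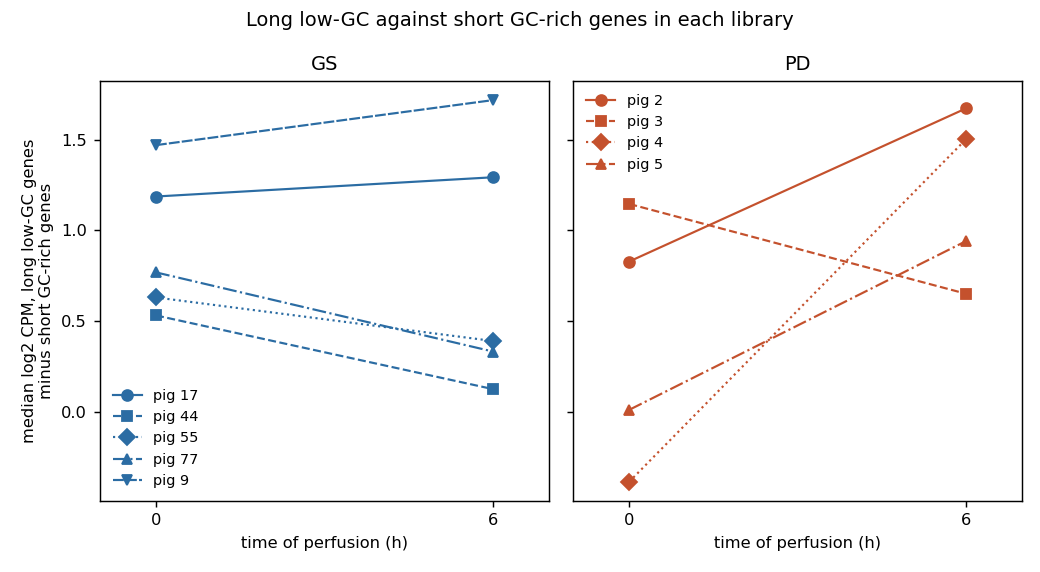
Median log2 level of long, low-GC genes minus that of short, high-GC genes in each library, joined from 0h to 6h for each pig. PD pigs 2, 4 and 5 go up by 0.84, 1.89 and 0.93, PD pig 3 goes down by 0.50, and the GS pigs change by at most 0.44 in size.

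The 48 genes called by DESeq2 held both kinds. The median 0h share was 81.0% over the 34 genes whose change was higher in PD and 66.3% over the 14 whose change was lower. At 6h 8 of each differed between the groups in edgeR, which is 23.5% of the 34 and 57.1% of the 14, beside 22.3% of all genes. IL1B (DESeq2 adjusted p = 1.1e-05), CCL4 (2.48e-05), DUSP2 (0.00314) and CCL3L1 (0.00983) were among the 34, with EGR3, ITGA8, VEGFD and CREBRF, and HES6, CSKMT, ARRDC2 and CD79B were among the 14.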

How the data were processed

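Lung biopsies of 9 pigs were sequenced as stranded, paired-end mRNA libraries. The authors trimmed reads with cutadapt 1.15, aligned them to Sscrofa11.1 with TopHat2 2.0.14 and deposited raw counts per Ensembl gene from featureCounts (Subread 1.6.0), and the strand setting and the handling of reads that map to several places are not given in the sources used here. Of 31908 genes, 17438 passed filterByExpr. Counts of 18 libraries were fitted in R 4.3.3 with edgeR 4.0.16 (TMM scaling, quasi-likelihood test, Benjamini-Hochberg adjustment over all genes tested, threshold 0.05) with a term for each pig and the group by time interaction. Each group's change came from the same fit, and the 0h and 6h levels were compared in separate fits. Fold changes are on the log2 scale and CPM uses TMM library sizes, with a prior count of 0.5 for log2 CPM and the 0h share. DESeq2 1.42.0, limma-voom (limma 3.58.1) and an exact Wilcoxon test of the changes of rlog values were run beside it.

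The block rests on the animal, since both libraries of a number come from 1 pig. Their deviations from the group means correlated across genes by 0.398 to 0.599 in GS and by 0.0056 to 0.253 in PD. No 2 libraries agreed within sampling noise (smallest chi-square per degree of freedom 36.4 over 153 pairs). Depth sets counting error only, and p-values measure the spread between these pigs. In edgeR the spread of each gene was fitted over both groups, so the p-values of a group's change rest partly on the spread of the other group. Weights for each group in limma-voom gave 5568 calls in GS and 45 in PD, beside 1921 and 780 in edgeR. Exon length and GC content came from RefSeq models of Sscrofa11.1, matched by NCBI gene number or by symbol. Where neither gave a match, a reciprocal overlap of at least 0.5 was used, which matched 2334 of the 31908 genes. Both properties were known for 14917 of the genes tested.

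The comparison, gene lists and tests were chosen with earlier results of these data known. Named were the 12 genes with a symbol and the smallest p in each direction, up to 4 members of each list by p, and IL1B, TNF, CCL4, TEK, IL6, CXCL8, IL10 and NOS3. IL1A, CCL19, JUN, JUNB, MYC, PRKG1, PTGS2 and ANGPT2 were added after their values were seen, and their calls were recomputed with the dependence on exon length and GC content removed but not with a pig left out.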

Additional observations from a re-analysis of the deposited data

Results flagged for a closer look

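For 9 of 118 named genes every GS pig moved one way between 0h and 6h and every PD pig the other way. All of these but FBL were named for a small p of the difference in change, so the choice of genes favored such movement. The PD minus GS difference in log2 change was 4.204 for IL1B, 1.35 for ITPR1, 1.30 for ITGA8, 1.73 for VEGFD and 1.64 for FREM1, where GS pigs went down and PD pigs up. It was -1.16 for ARRDC2, -0.93 for ZDHHC18, -1.80 for YDJC and -0.76 for FBL, where GS pigs went up and PD pigs down. These last 4 were at -0.90, -0.34, -1.11 and -0.30 with the dependence on exon length and GC content removed. IL1B, ITPR1, ITGA8, VEGFD and FREM1 were then at 4.165, 1.03, 1.03, 1.67 and 1.24. Without that removal the edgeR test of the difference itself gave an adjusted p of 0.513 or more for each of the 9 genes. Over all 17438 genes tested, 46 moved down in all GS pigs and up in all PD pigs and 42 the other way.

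GS pig 17 stood far from the other GS pigs for 2 of the 16 genes given by pig. Its log2 change was -1.69 for CCL4, against 0.47 in the next pig, and -2.23 for VEGFD, against -0.62 in the next. Of the 32 groups examined these 2 stood out, and chance alone sets apart about 1 in 20 groups.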

How the results depend on the processing

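The count of genes whose 6h change differed between PD and GS was 0 in every edgeR and limma-voom setting with all pigs, was 48 in DESeq2, and ran from 0 to 1 when each pig was left out (1 without PD pig 3). Genes at an unadjusted p under 0.05 numbered 1640, 1046 with all 27 libraries in the fit, 1013 with GS pigs 9 and 17 only, and 777 to 3133 with a pig left out (lowest without PD pig 5, highest without PD pig 3). The GS change count of 1921 became 3266 in DESeq2, 5568 in limma-voom, 862 with GS pigs 44, 55 and 77 only, 1 with GS pigs 9 and 17 only, and 567 (without GS pig 44) to 3589 (without PD pig 4) with a pig left out. The PD change count of 780 became 512 with all 27 libraries, 2553 in DESeq2, 45 in limma-voom, 1438 with the dependence on exon length and GC content removed, and 63 (without PD pig 5) to 2123 (without PD pig 3) with a pig left out. The 0h count of 6754 was 2272 with GS pigs 9 and 17 only and 5658 to 7394 with a pig left out, and the 6h count of 3884 was 2267 with the trend removed, 1098 with GS pigs 9 and 17 only and 1872 (without PD pig 2) to 4375 with a pig left out. The rank test could hardly reach the adjusted threshold with 4 against 5 pigs or fewer and so says nothing on stability (0 genes with any pig left out). Its 1061 genes at an unadjusted p under 0.05 ran from 654 (without GS pig 77) to 2437 (without PD pig 3). The median 0h shares of 87.2% and 84.1% became 104.5% and 105.6% with the trend removed, and 74.5% to 95.7% and 76.7% to 91.2% with a pig left out. Without the replicate block, 0 genes were called, 1210 had an unadjusted p under 0.05, and 1369 and 754 genes changed in GS and PD. For the difference in change of 118 named genes, where none was called, 2216 of 2240 values kept their direction and stayed uncalled and 22 became called, 21 in DESeq2 and IL1B without PD pig 3. The 2 that turned direction were HSP90AB1, -0.17 without PD pig 4 and 1.495 without PD pig 2 at the other end of its range, and NOS3, 0.33 with GS pigs 9 and 17 only. The calls of these genes in the other comparisons were less stable. With the dependence on exon length and GC content removed, 15 of 36 calls at 6h and 39 of 57 at 0h held (of the others 1 and 2 changed sign without passing in the other direction), and 30 of 33 in GS and 23 of 28 in PD. With a pig left out, 16 (without PD pig 2) to 34 of 37 held at 6h, 52 to 57 of 59 at 0h, 15 (without GS pig 44) to 34 of 34 in GS and 8 (without PD pig 5) to 27 of 28 in PD. Of the same calls limma-voom kept 5 of 28 in PD, the fit of all 27 libraries 17 of 28 in PD and 24 of 34 in GS, and the fit with GS pigs 9 and 17 only kept 0 of the 34 GS calls, 18 of the 28 PD calls, 26 of the 59 calls at 0h and 8 of the 37 at 6h. Settings with GS pigs split by depth were chosen after seeing the data. Why counts moved was not tested, except that leaving out pigs leaves fewer samples. With 4 PD and 5 GS pigs, differences that are small beside the spread between pigs may have been missed.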

Other observations

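Some abundant features without a gene symbol differed between the groups at 0h. The noncoding gene ENSSSCG00000041596, on an unplaced scaffold, took 0.361% to 2.05% of the counts in PD and 0.013% to 0.0328% in GS at 0h, and 0.161% to 0.271% and 0.0113% to 0.048% at 6h. The protein-coding gene ENSSSCG00000033310 on chromosome 5 took 0.344% to 0.559% of the counts in PD and 0.0404% to 0.0549% in GS at 0h.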
